A study of Mus musculus with 2 samples.

Results

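Zinc handling in the mouse islet was described through 6 genes, which make up all members chosen by name: the zinc exporters Slc30a8, Slc30a1 and Slc30a5, the zinc importer Slc39a14, and the metallothioneins Mt1 and Mt2. The 6 genes were taken from 33038 genes counted in either of the 2 libraries, and all 6 were found in both. The libraries were made by RevGel-seq, in which cells paired with barcoded beads are held in a reversible hydrogel, from control islets of C57BL/6J mice aged 8 weeks (male, according to the methods), and the labels name no treatment or genetic change. Each library started from 10000 dissociated islet cells. Both came from the same islet suspension, so the spread between them, and every p-value below, is technical and does not cover differences between mice.

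The files held 735 cells with 15931154 transcripts (unique molecular identifiers, UMIs) in library 1 and 748 cells with 17440292 UMIs in library 2, with medians of 17340 and 18922 UMIs per cell and 0 barcodes in common. Each cell was grouped by which hormones reached 1% of its UMIs, where insulin was the sum of Ins1 and Ins2. This gave 372 insulin-only, 356 Gcg-only, 58 Sst-only and 122 Ppy-only cells, 151 cells with Gcg and Ppy (Gcg+Ppy), 148 with Sst and Ppy (Sst+Ppy), 64 with insulin and another hormone, 29 with another combination and 183 with no hormone. Levels are given as UMIs per 1e+06 UMIs outside the 5 hormone genes (CPM), summed over the cells of a group in 1 library. Among the single-hormone groups, each marker list had its highest sum in the group of its label. The 6 beta markers other than insulin summed to 53659 and 55138.5 CPM in insulin-only cells against 751 and 574 CPM in Gcg-only cells. The 6 alpha markers summed to 46010 and 47582 CPM in Gcg-only cells. The 6 delta markers summed to 6893 and 6825 CPM in Sst-only cells, where Lepr and Nrg3 were at 0. The 5 gamma markers other than Ppy summed to 55107.5 and 42584 CPM in Ppy-only cells, where Abcc9 was at 0. In Sst-only cells, beta markers also summed to 15246 and 15531 CPM and the gamma markers to 13677 and 14241 CPM, both above the delta sum there. The gamma markers stood at 6666 and 6366 CPM in Gcg-only cells. The part of the beta and gamma markers in the Sst-only values below was not tested. The sum of a group in library 1 or 2 is called its replicate 1 or 2.

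Zinc is moved across membranes by 2 families of proteins. The ZnT proteins, encoded by the Slc30a genes, carry zinc out of the cytosol, either through the plasma membrane or into organelles and vesicles, and the ZIP proteins, encoded by the Slc39a genes, carry it into the cytosol. In the beta cell, ZnT8 (Slc30a8) loads zinc into the insulin granule, where insulin is stored as crystals with zinc. Metallothioneins are small cysteine-rich proteins that bind zinc and copper in the cytosol, and their genes and Slc30a1 are known targets of MTF1, a zinc-sensing transcription factor that binds metal response elements.

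On GRCm38, as annotated by GENCODE, Mt2 lies at chr8:94172664-94173568 and Mt1 at chr8:94179082-94180327, both on the plus strand, with 5514 bases from the end of the first to the start of the other. Slc30a1 lies at chr1:191906767-191913247 and Slc30a8 at chr15:52295553-52335798, also on the plus strand. Slc30a5 lies at chr13:100802648-100833427 and Slc39a14 at chr14:70303469-70351425, on the minus strand. All 6 are protein-coding, and UMIs were counted over exons. The 3 promoters below are shown because Mt1 and Mt2 varied together between cells and because all 3 genes are known metal-responsive genes. Each window holds 250 bases before and 30 bases after the RefSeq start (GRCm38.p6), written 5′ to 3′ on the gene's strand. Capitals mark matches on either strand to TGCACNC or TGCGCNC, the 2 forms of the metal response element core that were searched.
Mt1 (chr8:94178839-94179118, plus strand): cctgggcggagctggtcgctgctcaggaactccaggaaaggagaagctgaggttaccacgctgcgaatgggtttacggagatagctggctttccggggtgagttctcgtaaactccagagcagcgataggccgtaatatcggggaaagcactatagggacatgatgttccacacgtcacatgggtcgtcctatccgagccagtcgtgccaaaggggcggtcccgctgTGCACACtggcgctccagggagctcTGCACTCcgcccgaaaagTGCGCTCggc
Mt2 (chr8:94172368-94172647, plus strand): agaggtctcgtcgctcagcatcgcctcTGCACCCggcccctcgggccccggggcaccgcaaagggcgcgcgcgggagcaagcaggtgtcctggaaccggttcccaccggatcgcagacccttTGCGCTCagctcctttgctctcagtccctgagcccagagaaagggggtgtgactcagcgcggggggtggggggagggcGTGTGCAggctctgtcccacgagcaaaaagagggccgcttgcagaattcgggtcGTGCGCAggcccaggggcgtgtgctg
Slc30a1 (chr1:191906531-191906810, plus strand): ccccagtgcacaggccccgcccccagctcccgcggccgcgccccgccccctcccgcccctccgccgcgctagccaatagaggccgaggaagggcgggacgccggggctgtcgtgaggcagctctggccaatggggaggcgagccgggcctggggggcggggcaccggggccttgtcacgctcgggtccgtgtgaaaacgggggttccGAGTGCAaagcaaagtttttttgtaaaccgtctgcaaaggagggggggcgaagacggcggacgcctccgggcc

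The Mt2 window held 4 matches, the Mt1 window 3, and those of Slc30a1 and Slc30a5 held 1 each. Of 32851 promoter windows of the same length, 24.1% held at least 1 match, 1.73% at least 3 and 0.405% at least 4, so a single match was common and 3 or more were not. Counted from the RefSeq start, the matches in Mt1 began at positions -23, 2 and 20, and those in Mt2 at -223, -128, -50 and 4. The whole Mt2 window, which ends at 94172647, lies before the GENCODE start of Mt2 at 94172664. These positions thus depend on the start chosen, and matches outside the windows were not counted. A window was found for 4 of the 6 genes, and Slc30a8 and Slc39a14 are named only. A match describes letters and is not a measured binding site.

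Slc30a8 was abundant in insulin-only cells and at a similar level in glucagon cells. Its level was 1305 CPM in library 1 and 1282 CPM in library 2 for insulin-only cells, and 1270 and 1319 CPM for Gcg-only cells. The libraries of these 2 groups overlapped. The fold between them was 1.03, with a 95% interval of 0.825 to 1.28 (adjusted p = 0.866, edgeR's quasi-likelihood test with Benjamini-Hochberg adjustment, as for every adjusted p below). Gcg+Ppy cells stood at 1076 and 1077 CPM, below both libraries of the insulin-only and of the Gcg-only cells. The difference from Gcg-only cells did not pass the test (1.204-fold lower, interval 0.960 to 1.51, adjusted p = 0.704).

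The remaining endocrine groups had far less Slc30a8. Ppy-only cells held 55.9 and 64.5 CPM, Sst+Ppy cells 19.5 and 16.5 CPM, and Sst-only cells 50.5 CPM in library 1 and no UMI in library 2, where 0 of 298300 UMIs allows up to 10.1 CPM. No library of these groups came near one of the insulin or glucagon groups. Insulin-only cells were higher than Ppy-only cells by 22.1-fold (interval 16.3 to 30.1, adjusted p = 3.7e-09) and higher than Sst-only cells by 46.8-fold (interval 29.5 to 74.3, adjusted p = 4.1e-08), and Gcg-only cells exceeded the same groups by 21.5-fold (adjusted p = 1.0e-08) and 45.5-fold (adjusted p = 4.8e-08). The Sst-only value rested on 1 cell, which held 15 of the 23 UMIs of library 1. The fitted log2 difference between insulin-only and Sst-only cells was 5.55 (interval 4.88 to 6.21). From the summed CPM, with no test, it was 4.69 in library 1 and 6.99 in library 2, where 0 counts were taken as 3. Both lie outside the interval, which thus does not cover the difference between the libraries. For Gcg-only against Sst-only cells these values were 4.65 and 7.04, against an interval of 4.84 to 6.18. Without the 3 cells with most Slc30a8 UMIs in each sum, the untested value for insulin-only against Sst-only cells was 7.39. Sst+Ppy cells were 3.53-fold lower than Ppy-only cells (interval 1.96 to 6.36, adjusted p = 0.00618). That call was lost without replicate 2 of the Ppy-only cells (adjusted p = 0.0668), without replicate 1 of the Sst+Ppy cells (adjusted p = 0.0536), without replicate 2 of the Sst+Ppy cells (adjusted p = 0.0797), at a hormone threshold of 5% (adjusted p = 0.527) and with 23 cells a sum (adjusted p = 0.353). The hormone threshold of 5% left only 8 and 5 Sst+Ppy cells in libraries 1 and 2. Sst-only and Ppy-only cells did not differ past the threshold of the test (2.11-fold lower in Sst-only cells, adjusted p = 0.179). They did under 6 of 17 alternatives: with DESeq2 (adjusted p = 0.0192), no filter (adjusted p = 0.00214), hormone thresholds of 0.5% (adjusted p = 0.00101) and 2% (adjusted p = 0.0368), Sst cells with and without Ppy joined (adjusted p = 1.5e-06), and without replicate 1 of the Sst-only cells (adjusted p = 6.8e-07), which leaves 0 UMIs.

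The groups also differed in how many cells held Slc30a8. Every cell was thinned to 2500 UMIs outside the hormone genes in a single random draw, which left out no cell. At least 1 Slc30a8 UMI was then held by 89.0% and 91.6% of insulin-only cells in libraries 1 and 2. The shares were 94.5% and 90.8% in Gcg-only cells and 84.6% and 82.6% in Gcg+Ppy cells. The same shares were 9.26% and 11.8% in Ppy-only cells, 5.71% and 0% in Sst-only cells and 3.90% and 5.63% in Sst+Ppy cells. Without thinning, the means were 98.6% for insulin-only and 99.7% for Gcg-only cells, and 11.4% for Sst-only cells. As a background, the hormone-negative cells with endothelial or leukocyte markers, which are not expected to express Slc30a8, held it in 0 of 60 and 0 of 83 thinned cells, which allows shares of up to 5% and 3.61%. Their summed levels lay between 2.31 and 12.4 CPM, at median depths of 14738 and 16441 UMIs for endothelial-marker cells and 10555 and 11261 UMIs for leukocyte-marker cells. The shares in Sst+Ppy and Sst-only cells were near this background, with wide intervals in Sst-only cells (0.70% to 19.2% and 0% to 14.8%). Summed levels of 19.5 and 16.5 CPM in Sst+Ppy cells and 50.5 CPM in Sst-only cells of library 1 lay above its range. The hormone-negative cells with other or few markers held 60.2 and 66.4 CPM, of which 3 cells held 82.4% and 95.7%. Their thinned shares were 9.09% and 11.1%. In Ppy-only cells the lower 95% limit was 3.08% in library 1, below both shares that the background allows. It was 5.22% in library 2, above both. In Ppy-only cells 3 cells held 52.3% of the Slc30a8 UMIs of library 1 and 40.9% of those of library 2, before thinning. All these intervals cover counting error only. Within insulin-only cells the 10th and 90th percentiles were 488 and 2117 CPM in library 1 and 439 and 1929 CPM in library 2, a range close to that of Gcg-only cells (607 to 2033 and 577 to 2033 CPM).

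**Figure D1:**
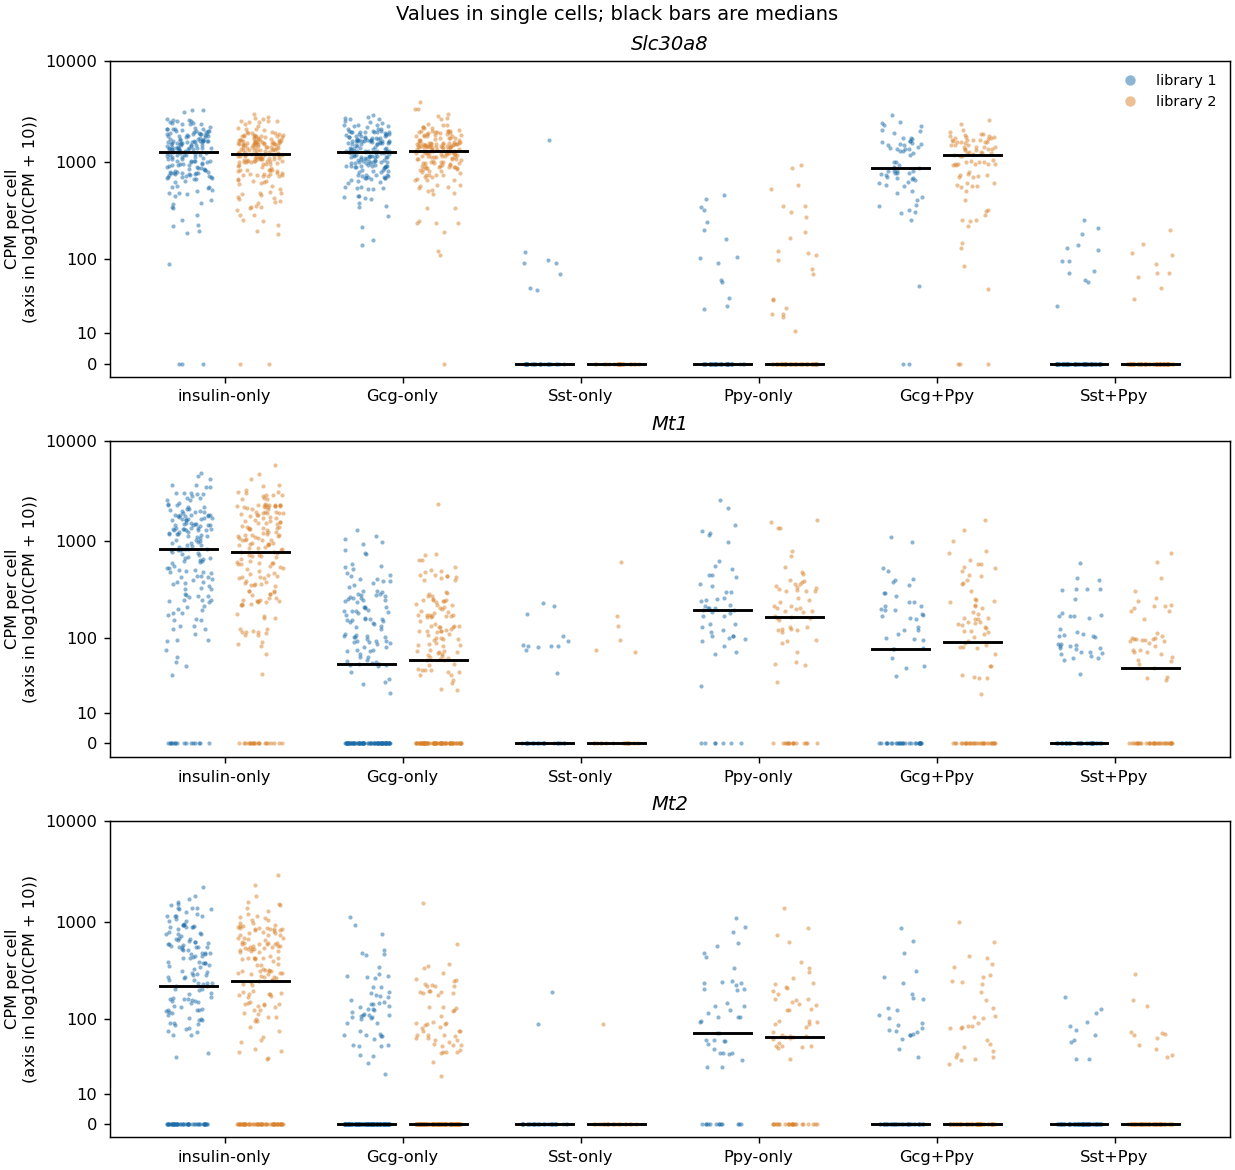
Values of Slc30a8, Mt1 and Mt2 in single cells. Each point is 1 cell, plotted as CPM outside the hormone genes on an axis of log10(CPM + 10), by hormone group and library, and black bars are medians. Slc30a8 is present in nearly every insulin-only, Gcg-only and Gcg+Ppy cell and absent from most others, while Mt1 spreads from 0 to 4817 CPM (library 1) and 5839 CPM (library 2) within the insulin-only group.

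The metallothioneins had a different order. Mt1 reached 1079 and 998 CPM in insulin-only cells, 376 and 304 CPM in Ppy-only cells, 147 and 174 CPM in Gcg+Ppy cells, 134 and 115 CPM in Gcg-only cells, 88.4 and 108 CPM in Sst+Ppy cells and 41.8 and 43.6 CPM in Sst-only cells. The 2 libraries of each group lay together and no group overlapped another, with insulin-only cells highest and Sst-only cells lowest. Insulin-only cells were higher than Gcg-only cells by 8.60-fold (interval 7.38 to 10.01, adjusted p = 2.3e-25), than Sst-only cells by 26.8-fold (adjusted p = 3.2e-23) and than Ppy-only cells by 3.20-fold (adjusted p = 6.4e-17). Ppy-only cells were in turn higher than Gcg-only cells by 2.69-fold (adjusted p = 8.1e-13) and than Sst-only cells by 8.38-fold (adjusted p = 9.6e-15). The 6 beta markers summed to 4649 and 2041 CPM in Ppy-only cells, against 751 and 574 CPM in Gcg-only cells, and their part in this difference was not tested. The difference between Gcg-only and Ppy-only cells was lost when every sum was cut to 23 cells, where the log2 difference went from -1.43 to -0.26 (adjusted p = 0.647).

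Mt2 followed Mt1. It reached 377 and 359 CPM in insulin-only cells, 156 and 144 CPM in Ppy-only cells, 83.3 and 73.7 CPM in Gcg+Ppy cells, 68.2 and 49.2 CPM in Gcg-only cells, 13.0 and 30.2 CPM in Sst+Ppy cells and 8.790 and 6.705 CPM in Sst-only cells. The order of the 6 groups was that of Mt1. Insulin-only cells were higher than Gcg-only cells by 6.46-fold (adjusted p = 2.0e-18), than Sst-only cells by 50.3-fold (adjusted p = 1.4e-16) and than Ppy-only cells by 2.56-fold (adjusted p = 2.1e-10). The Sst-only values of Mt2 were 4 and 2 UMIs. In Gcg-only against Ppy-only cells Mt2 was 2.52-fold lower (adjusted p = 2.6e-08), and this too was lost with 23 cells a sum (log2 difference -0.60, adjusted p = 0.360). The ratio of Mt1 to Mt2 UMIs was 2.86 and 2.78 in insulin-only cells, 1.96 and 2.34 in Gcg-only cells and 2.41 and 2.11 in Ppy-only cells. Mt1 and Mt2 are close paralogues, and how reads that match both were counted is not given in the sources used here. The gene Gm45774 overlaps Mt2 on the other strand and held 158 UMIs against 3274 for Mt2. Whether counting used the strand is not given either, so reads of that pair cannot be told apart.

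Between cells of 1 group the metallothioneins varied widely. In insulin-only cells the median of Mt1 was 841 CPM in library 1 and 786 CPM in library 2, with 90th percentiles of 2351 and 2298 CPM and 10th percentiles of 54.7 and 0 CPM. After thinning, 74.7% and 70.0% of insulin-only cells held an Mt1 UMI, against 22.5% and 21.8% of Gcg-only cells and 46.3% and 35.3% of Ppy-only cells. The share was 0% and 3.03% in endothelial-marker cells. The same cells tended to hold both genes: Spearman's rho of Mt1 and Mt2 across insulin-only cells was 0.80 in library 1 (182 cells) and 0.70 in library 2 (190 cells). It was 0.46 and 0.36 across Gcg-only cells and 0.41 and 0.45 across Ppy-only cells. It was 0.32 and 0.22 across Gcg+Ppy, 0.26 and 0.07 across Sst+Ppy and 0.12 and 0.37 across Sst-only cells. Mt1 levels were lower in all these groups than in insulin-only cells, and their part in rho was not tested. Across hormone-negative cells, which mix several marker sets and held 136 and 102 CPM of Mt1, rho was 0.61 and 0.61. Cells of 1 library share their library and differ in depth, and these values are descriptions. The rho of Slc30a8 and Mt1 across insulin-only cells was 0.32 and 0.18.

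**Figure D2:**
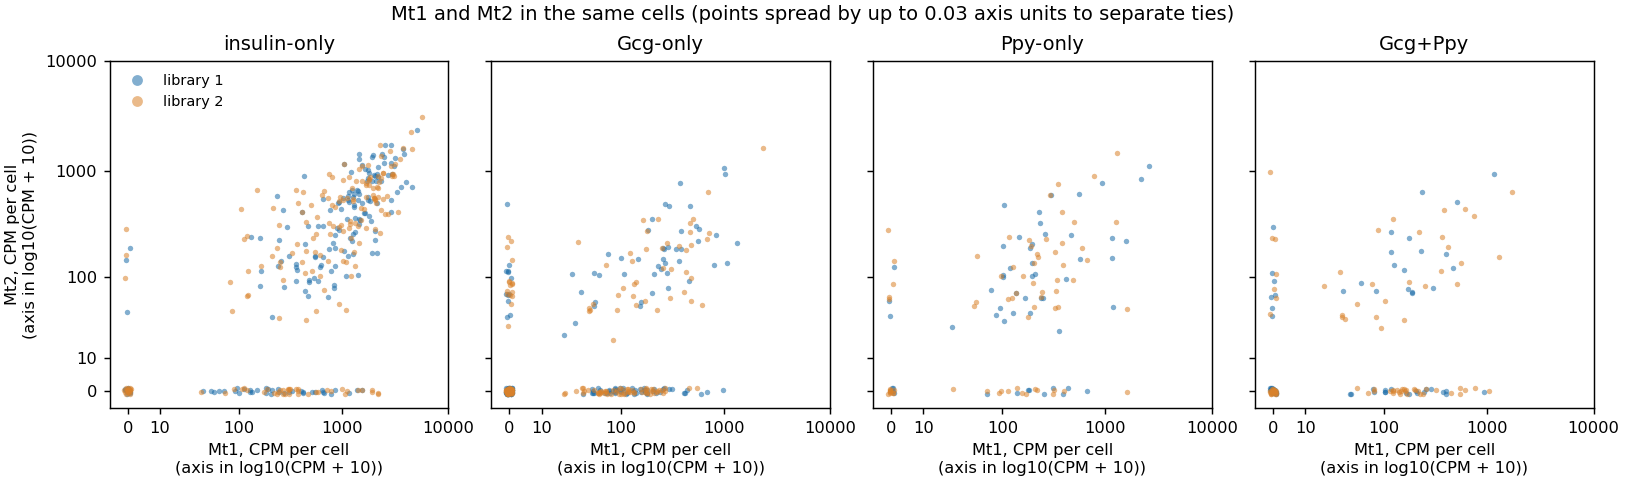
Mt1 (horizontal) against Mt2 (vertical) in the same cells, both in CPM outside the hormone genes on axes of log10(CPM + 10), for 4 hormone groups, with each point a cell coloured by library. Among insulin-only cells, those high in one gene tend to be high in the other (Spearman's rho 0.80 and 0.70).

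Genes induced by cell dissociation also differed between these groups, with insulin-only cells lowest and Ppy-only cells highest in their sum. The 10 genes listed (Fos, Fosb, Jun, Junb, Egr1, Ier2, Atf3, Hspa1a, Hspa1b and Dnajb1) summed to 4940 and 4681 CPM in insulin-only cells, 15805 and 14929 CPM in Gcg-only cells, 11719 and 11690 CPM in Sst-only cells and 22200.4 and 24978 CPM in Ppy-only cells, and none was at 0 in any of these groups. In insulin-only cells 10 of 10 were lower than in Gcg-only and in Ppy-only cells, and 9 of 10 were lower than in Sst-only cells, where 36.3%, 31.0% and 21.4% of all genes were called in either direction. Of 6 genes known to respond to glucocorticoids, which also induce metallothioneins, 1 was higher and 3 were lower in insulin-only than in Gcg-only cells, 0 higher and 2 lower than in Sst-only and 0 higher and 3 lower than in Ppy-only cells, beside the same shares of all genes. Their summed levels of 480 and 551 CPM in insulin-only cells overlapped those of Gcg-only cells (471 and 525 CPM). The part of either list in the metallothionein differences was not tested.

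Slc30a1, the exporter of the plasma membrane, was at most 73.8 CPM in any library of the 6 endocrine groups. Its levels were 32.8 and 34.5 CPM in insulin-only cells, 21.7 and 32.2 CPM in Gcg-only cells, 30.1 and 27.0 CPM in Ppy-only cells, 19.7 and 26.4 CPM in Gcg+Ppy cells, 16.7 and 30.2 CPM in Sst+Ppy cells and 41.8 and 73.8 CPM in Sst-only cells. The Sst-only libraries were the highest, on 19 and 22 UMIs. Insulin-only cells did not differ from Gcg-only cells past the threshold (1.28-fold higher, interval 0.910 to 1.80, adjusted p = 0.272), nor from Ppy-only cells (1.24-fold higher, interval 0.849 to 1.80, adjusted p = 0.426) or Sst-only cells (1.49-fold lower, interval 0.949 to 2.34, adjusted p = 0.225). Gcg-only cells were 1.91-fold lower than Sst-only cells (adjusted p = 0.0416), a call held under 7 of 17 alternatives and lost without replicate 2 of the Sst-only cells (adjusted p = 0.488) or replicate 1 of the Gcg-only cells (adjusted p = 0.268), and narrowly without any 1 of the insulin-only or Ppy-only sums (adjusted p from 0.0529 to 0.0558).

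The highest Slc30a1 lay outside the endocrine groups. Among hormone-negative cells, the 27 and 33 cells with endothelial markers held 115 and 157 CPM, against 13.5 and 15.5 CPM in the 42 and 41 cells with leukocyte markers. No library of an endocrine group reached these values. In a fit chosen after seeing the data, which added both sets of cells to the 6 groups, the endothelial-marker cells were higher than insulin-only cells by 4.62-fold (interval 3.18 to 6.703, adjusted p = 4.1e-08), than Gcg-only cells by 5.89-fold (adjusted p = 3.6e-09) and than leukocyte-marker cells by 10.54-fold (adjusted p = 1.7e-08). In the same cells Mt1 was at 2.31 and 13.7 CPM and Mt2 at 2.31 and 2.49 CPM, on 1 and 11 and on 1 and 2 UMIs. Of the 6 genes, 5 were called against insulin-only cells, 1 higher and 4 lower, where 51.3% of all genes tested were called. Against Gcg-only cells 4 were called, 1 higher and 3 lower (49.3%), and against leukocyte-marker cells 4, 1 higher and 3 lower (38.5%). Without replicate 2 of the endothelial-marker cells the call of Slc30a5 against insulin-only cells (adjusted p = 0.0701) and those of Mt2 (adjusted p = 0.0800) and Slc30a5 (adjusted p = 0.2001) against leukocyte-marker cells were lost, and the last was called under 3 of 6 alternatives. Endothelial markers were also found in Sst-only cells of library 1, where the 6 markers summed to 545 CPM against 36.9 CPM in library 2, beside Slc30a1 at 41.8 and 73.8 CPM, and their part in the Sst-only values was not tested. The gene 1700034H15Rik overlaps Slc30a1 on the other strand and held 56 UMIs against 843.

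**Figure D3:**
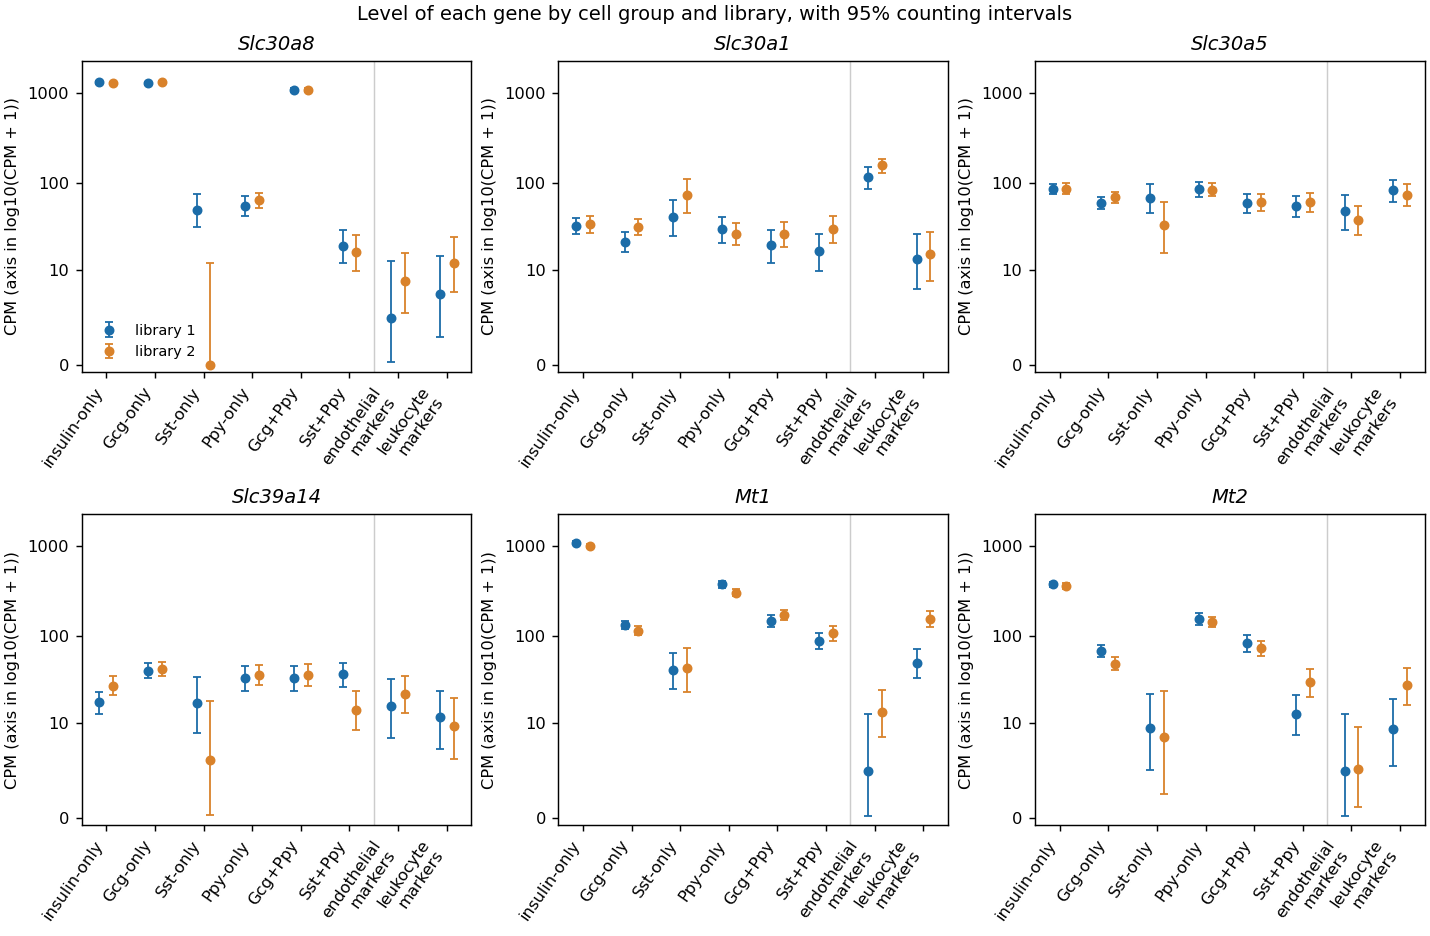
Level of each of the 6 genes by cell group, in CPM outside the hormone genes on an axis of log10(CPM + 1), with 1 point per library and 95% Poisson counting intervals. The groups right of the grey line are hormone-negative cells with endothelial or leukocyte markers. Slc30a8 falls into a high and a low set of groups, Mt1 and Mt2 share 1 order of groups with insulin-only cells at the top, and Slc30a1 peaks in endothelial-marker cells.

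Slc30a5, a zinc transporter of the early secretory pathway, lay between 54.9 and 86.3 CPM in all libraries of the 6 endocrine groups except the Sst-only cells of library 2, which stood at 33.5 CPM on 10 UMIs. Insulin-only cells, at 86.0 and 86.3 CPM, were 1.37-fold higher than Gcg-only cells, at 60.2 and 69.1 CPM (interval 1.104 to 1.70, adjusted p = 0.0179). The call held under 11 of 17 alternatives and was lost without replicate 1 of the insulin-only cells (adjusted p = 0.0681), replicate 2 of the insulin-only cells (adjusted p = 0.103) or replicate 1 of the Gcg-only cells (adjusted p = 0.196). Ppy-only cells, at 85.1 and 84.4 CPM, were not separated from insulin-only cells (1.06-fold, interval 0.843 to 1.33, adjusted p = 0.755). Against Sst-only cells, at 68.1 and 33.5 CPM, insulin-only cells were 1.75-fold higher (adjusted p = 0.0136), which was lost without replicate 2 of the Sst-only cells (adjusted p = 0.242).

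Slc39a14, which encodes the importer ZIP14 that also carries iron and manganese, was the only one of the 6 genes called as lower in insulin-only than in Gcg-only cells. It stood at 17.7 and 27.8 CPM in insulin-only cells, 41.1 and 43.2 CPM in Gcg-only cells, 33.5 and 36.9 CPM in Ppy-only cells, 34.1 and 36.9 CPM in Gcg+Ppy cells, 37.2 and 14.6 CPM in Sst+Ppy cells and 17.6 and 3.352 CPM in Sst-only cells. The insulin and glucagon groups did not overlap, and the difference was 1.81-fold (interval 1.26 to 2.62, adjusted p = 0.00874). It held under 12 of 17 alternatives and was lost without replicate 1 of the insulin-only cells (adjusted p = 0.208) or replicate 2 of the Gcg-only cells (adjusted p = 0.0751). Gcg-only cells were also 3.78-fold higher than Sst-only cells (interval 1.88 to 7.58, adjusted p = 0.00430), where the latter held 8 and 1 UMIs. Without replicate 2 of the Sst-only cells that adjusted p was 0.0857.

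The counts of called genes are set beside the share of all genes called in the same contrast. Of the 6 genes, 4 were called between insulin-only and Gcg-only cells, 3 higher and 1 lower in insulin-only cells, where 36.3% of the 12986 genes tested were called in either direction. Between insulin-only and Sst-only cells 4 were called, all higher (21.4% of all genes called), and between insulin-only and Ppy-only cells 3, all higher (31.0%). Between Gcg-only and Sst-only cells 5 were called, 4 higher and 1 lower (18.5%), between Gcg-only and Ppy-only cells 3, 1 higher and 2 lower (18.0%), and between Sst-only and Ppy-only cells 4, all lower (14.9%). These contrasts share libraries and groups, and 6 genes are few. Among the 4 called between Sst-only and Ppy-only cells, Slc39a14 was called under 8 of 17 alternatives and Slc30a5 under 7 of 17.

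Cells with Ppy beside another hormone were set against both of their single-hormone groups. At the hormone threshold of 1%, none of the 6 genes was called by edgeR or DESeq2 between Gcg+Ppy and Gcg-only cells (0.554% of all genes by edgeR), and 2, Mt1 and Mt2, had an unadjusted p under 0.05. Mt1 was called by edgeR under 2 of 15 alternatives, as higher in Gcg+Ppy cells. These were thresholds of 2% (log2 difference 0.48, adjusted p = 0.0459) and 5% (0.74, adjusted p = 0.00227). At 5%, 27 and 24 Gcg+Ppy cells were left in libraries 1 and 2. Against Ppy-only cells, Slc30a8 was 17.9-fold higher (adjusted p = 6.2e-08), Mt1 2.07-fold lower (adjusted p = 2.8e-08) and Mt2 1.89-fold lower (adjusted p = 0.000200), where 8.54% of all genes were called. With 23 cells a sum the calls of Mt1 (log2 difference -0.32, adjusted p = 0.639) and Mt2 (-0.71, adjusted p = 0.331) were lost. Between Sst+Ppy and Sst-only cells edgeR called none (0.0616% of all genes), with Mt1 nearest (2.33-fold higher, adjusted p = 0.0550), and 3 had an unadjusted p under 0.05. Mt1 was called there under 6 of 15 alternatives: by DESeq2 (adjusted p = 0.0309), and by edgeR with no filter on low counts (adjusted p = 0.00101), hormone genes kept (adjusted p = 0.0477), a replicate block (adjusted p = 0.0431), doublets removed (adjusted p = 0.0282) or without replicate 1 of the Sst+Ppy cells (adjusted p = 0.0310). In Sst+Ppy cells 4 genes were lower than in Ppy-only cells (16.8% of all genes called): Mt1 (3.60-fold), Mt2 (7.198-fold), Slc30a8 and Slc30a5. The Slc30a5 difference was 1.53-fold (adjusted p = 0.0213) and held under 7 of 15 alternatives.

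**Figure D4:**
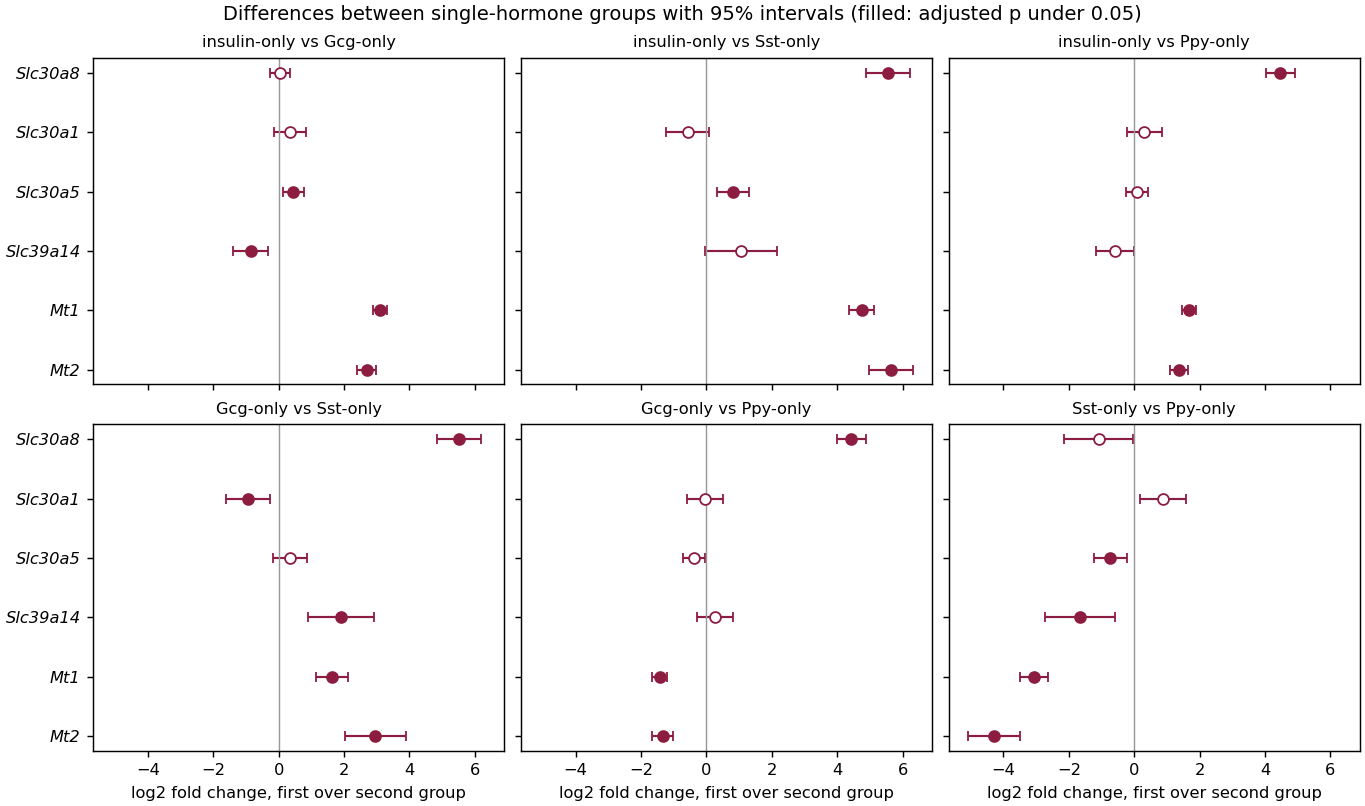
Log2 fold changes of the 6 genes between single-hormone groups, the first group over the second, from edgeR, with 95% intervals. Filled points have an adjusted p under 0.05. Slc30a8 is near 0 between insulin-only and Gcg-only cells (0.04) and above 4 for either of them against Sst-only or Ppy-only cells.

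None of the 6 genes was called between insulin-only cells with much and with little insulin. Each library's insulin-only cells were split at the median insulin share of UMIs (38.7% and 41.5%) into high-insulin and low-insulin cells. Slc30a8 stood at 1332 and 1231 CPM in high-insulin cells and 1288 and 1316 CPM in low-insulin cells, and was 1.04-fold higher in high-insulin cells in the fit, with an interval of 0.903 to 1.19 (adjusted p = 0.829). Mt1 was at 905 and 1044 CPM in high-insulin cells and 1191 and 968 CPM in low-insulin cells (1.05-fold lower, interval 0.901 to 1.23, adjusted p = 0.784). Of all 10880 genes tested by edgeR 5.61% were called, and 0 of the 6 genes had an unadjusted p under 0.05. The 2 libraries did not order the high-insulin and low-insulin cells alike for Slc30a8 or Mt1. They did for Slc30a5, at 81.0 and 70.4 CPM in high-insulin and 89.2 and 96.9 CPM in low-insulin cells (edgeR adjusted p = 0.566). They also did for Slc39a14, at 20.7 and 32.6 CPM in high-insulin and 15.8 and 24.6 CPM in low-insulin cells (edgeR adjusted p = 0.479). The 64 cells with insulin and another hormone held 599 and 668 CPM of Slc30a8 and 465 and 498 CPM of Mt1, between insulin-only and Sst-only values.

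The rest of both transporter families was described from the family lists. Of 10 ZnT genes, 9 were in the tables and 7 passed the filter on low counts, of 14 ZIP genes 14 and 9, and of 4 metallothioneins 3 and 2. Between insulin-only and Gcg-only cells, where 36.3% of all genes were called, 3 of 7 ZnT genes were higher and none lower (median log2 difference 0.36, against -0.02 over all genes), and 2 of 9 ZIP genes were higher and 3 lower (median 0.01). The ZnT share is near that of all genes. Slc39a11 was the largest of these, at 12.2 and 6.74 CPM in insulin-only cells and 45.3 and 47.1 CPM in Gcg-only cells, with a log2 difference of -2.22 (SE 0.26, adjusted p = 1.9e-09), and it was also lower in insulin-only than in Ppy-only cells (-1.59, adjusted p = 3.3e-05). Slc30a9 was higher in insulin-only cells, at 118 and 114 CPM, than in Gcg-only cells, at 81.5 and 89.2 CPM (log2 difference 0.48, adjusted p = 0.00421), and than in Ppy-only cells (0.76, adjusted p = 0.000115). Slc39a6 (0.60), Slc39a13 (0.59) and Slc30a7 (0.53) were higher in insulin-only than in Gcg-only cells, with adjusted p-values of 0.00421, 0.00378 and 0.0453, and Slc39a5 was lower (-1.13, adjusted p = 0.0284). Against Sst-only cells 2 ZnT genes were higher and no ZIP gene was called (21.4% of all genes called), and against Ppy-only cells 2 ZnT genes were higher and 2 ZIP genes lower (31.0%).

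The zinc sensor Mtf1 was in every group. It stood at 75.3 and 79.6 CPM in insulin-only cells, 92.2 and 94.6 CPM in Gcg-only cells, 46.1 and 60.3 CPM in Sst-only cells and 45.5 and 55.7 CPM in Ppy-only cells. Insulin-only cells were higher than Ppy-only cells (log2 difference 0.65, adjusted p = 0.00363) and Sst-only cells (0.71, adjusted p = 0.0372), and so were Gcg-only cells (0.88, adjusted p = 0.000161, and 0.94, adjusted p = 0.00422). The order of Mtf1 RNA was thus not that of Mt1, since Ppy-only cells were high in Mt1 and low in Mtf1. The activity of MTF1 was not measured, and its part in the metallothionein differences was not tested. Gpr39, a zinc-sensing receptor, lay between 2.35 and 15.4 CPM in the 6 endocrine groups. Slc30a10 and Slc30a2 held at most 1 UMI in any library of these groups, and Mt3 held 1.

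**Figure D5:**
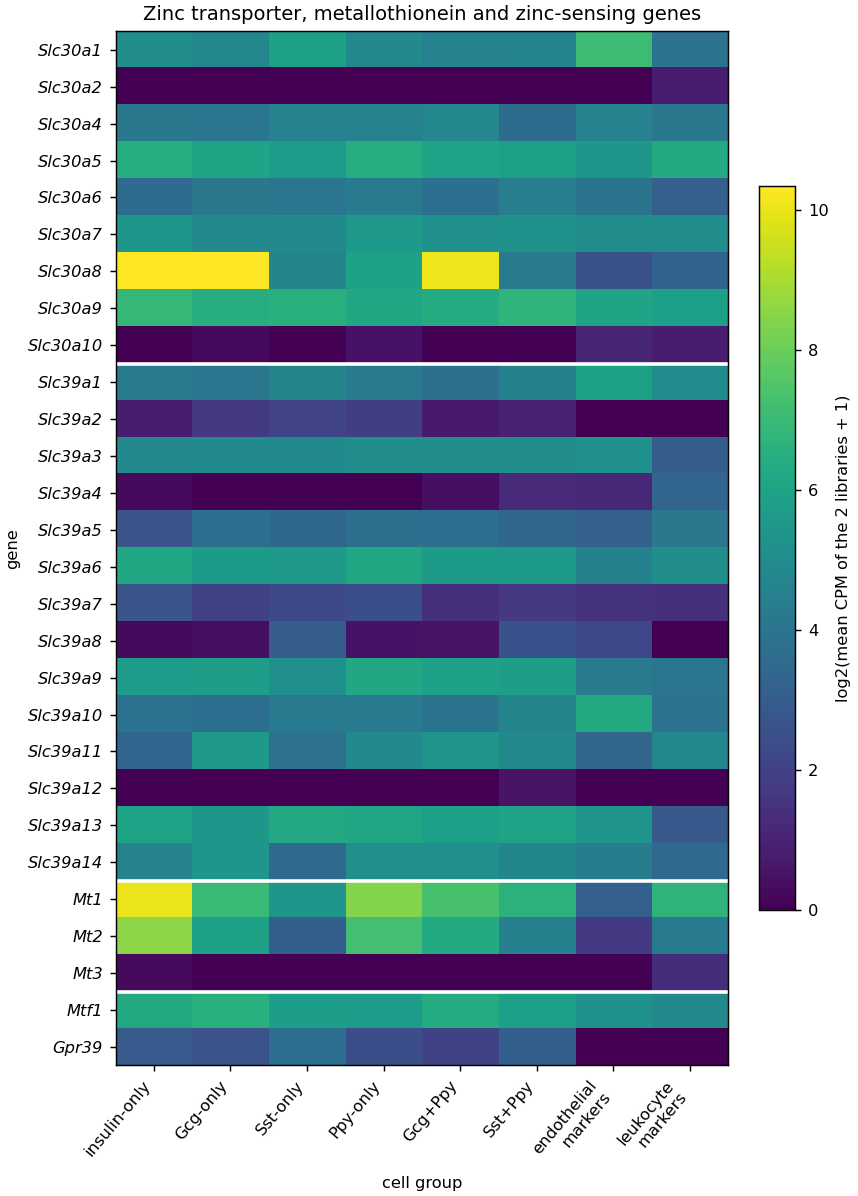
Levels of the ZnT, ZIP, metallothionein and zinc-sensing genes found in the tables, as log2(mean CPM of both libraries + 1), by hormone group and in hormone-negative cells with endothelial or leukocyte markers. White lines separate the families. Slc30a8 is bright in the insulin-only, Gcg-only and Gcg+Ppy groups and dark in the others.

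Genes with the most similar pattern over the 12 sums of 6 groups and 2 libraries were ranked by Pearson's r of log2(CPM + 1) among 10598 genes that reached 20 CPM in at least 1 sum. For Slc30a8 they were Dock8 (r = 0.98), Tenm2 (0.96), Gpd2 (0.95), Lpl (0.95) and Zfp516 (0.95). For Mt1 they were Galr1 (0.99), the beta-cell homeodomain factor Nkx6-1 (0.98), Syt13 (0.96), Dlgap1 (0.96) and Gm45774 (0.96), the gene that overlaps Mt2. Mean Nkx6-1 levels were 1448 CPM in insulin-only, 402 CPM in Ppy-only, 74.3 CPM in Gcg-only and 19.3 CPM in Sst-only cells. For Slc39a14 they were Gxylt1, Ranbp10, Shprh, Marveld1 and Ccpg1 (0.96 to 0.95), and for Slc30a1 Dnm2, Dnajc15, Ift52, Stoml1 and Gm19028 (0.91 to 0.88). The 12 sums share groups and libraries, so these values are descriptions.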

How the data were processed

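RevGel-seq was run on dissociated mouse islet cells in 2 technical replicates of the same suspension, which form 1 group. The authors deposited whole UMI counts per gene and cell for each library. Per the methods, Cytonaut selected cell barcodes with UMI-tools, aligned reads to exons of GRCm38 with Ensembl release 99, removed duplicates and assigned reads to genes. The aligner, the use of strand and the treatment of reads that match several genes are not given in the sources used here. The authors' cell annotation was not used here.

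Cells are not replicates. Counts were summed over the cells of each hormone group and library after leaving out the 5 hormone genes, giving 12 sums of 6 groups, and were tested with edgeR 4.0.16 (TMM, filterByExpr, robust quasi-likelihood test, adjusted p threshold 0.05, R 4.3.3). DESeq2 1.42.0 was an alternative. Shares of cells have exact binomial 95% intervals and levels exact Poisson ones, which cover counting error only. Scrublet in scanpy 1.11.5 called 8 doublets in each library and 0 in the 4 single-hormone groups, and they were kept. Library 1 held 15931154 UMIs and library 2 held 17440292. Counts were simulated for 12986 genes with the fitted dispersion trend and no other differences, and 12262 genes passed the filter. With 100 genes changed per fold, 66% of 2-fold and 88% of 4-fold changes were recovered for insulin-only against Gcg-only cells. For insulin-only against Sst-only cells 36% and 70% were recovered. Changed genes that failed the filter count as missed. Spread particular to a gene was not simulated, so recovery in the data can differ.

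The 6 genes are named by rule, other genes by the family lists and the 5 most similar patterns. Members and lists were chosen with earlier results of these data known. Sums with the same number share a library, and the correlation of their deviations over 6303 genes ranged from -0.017 to 0.056 in 15 pairs of groups, so no block was used in the main fit. Alternatives were other normalizations, filters, hormone thresholds, group sets, equal cell numbers, removed doublets, a replicate block and left-out sums. Of these, joining Gcg and Sst cells with and without Ppy, the fit with endothelial-marker and leukocyte-marker cells, and leaving out 1 of the 12 sums were chosen after seeing the data.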

Additional observations from a re-analysis of the deposited data

How the results depend on the processing

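The calls of Mt1 and Mt2 in insulin-only against Gcg-only, Sst-only and Ppy-only cells and of Slc30a8 against the last 2 held under 17 of 17 tested alternatives, and no difference turned sign where it was called. Differences that did not pass the test could turn sign, as for Slc30a8 in insulin-only against Gcg-only cells (log2 difference -0.23 to 0.12), Slc30a1 in insulin-only against Sst-only cells (-0.97 to 0.24) and Mt1 in Sst+Ppy against Sst-only cells (-0.36 to 1.37). Slc30a5 against Gcg-only cells lost its call with DESeq2 (log2 difference 0.47), 8 groups (0.44) and equal cell numbers (0.35). Slc39a14 against Gcg-only cells lost it in the same settings (-0.83, -0.87 and -1.17), and Slc30a5 against Sst-only cells with DESeq2 (0.80) and equal cell numbers (0.64). Slc39a14 against Ppy-only cells gained a call at a hormone threshold of 5% (-0.66). The cause was not tested. Equal cell numbers leave 23 cells a sum. The 5% threshold leaves 8 and 5 Sst+Ppy cells in libraries 1 and 2, against 77 and 71 at 1%. It leaves 27 and 24 Gcg+Ppy cells, against 65 and 86 at 1%.

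With equal cell numbers the genes called fell to 1226, 1047 and 1259 for insulin-only against Gcg-only, Sst-only and Ppy-only cells, 897 and 547 for Gcg-only against Sst-only and Ppy-only cells, 862 for Sst-only against Ppy-only cells, 3 and 287 for Gcg+Ppy against Gcg-only and Ppy-only cells, and 3 and 743 for Sst+Ppy against Sst-only and Ppy-only cells. Joining cells with and without Ppy gave 4297 for insulin-only and 3702 for Gcg-only against Sst cells. Gcg-only against Ppy-only cells gave 1415 with DESeq2 and 1512 with 8 groups. Gcg+Ppy against Gcg-only cells gave 42 with DESeq2, 6 with 8 groups, 140 with no filter, and 45, 111 and 120 at thresholds of 0.5%, 2% and 5%, and against Ppy-only cells 650 with DESeq2, 572 with 8 groups and 587 at 5%. Sst+Ppy against Sst-only cells gave 3 with 8 groups, 36 with no filter and 18 at 5%, and against Ppy-only cells 604 at 5%.

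Without TMM, 1036 genes were higher and 1754 lower in insulin-only than in Sst-only cells, against 1425 and 1355, and the median of all genes was -0.13 against 0.00. For Gcg+Ppy against Gcg-only cells the split was 48 and 24, and 33 and 9 with DESeq2, 5 and 1 with 8 groups and 56 and 64 at 5%. For Sst+Ppy against Sst-only cells it was 7 and 1, and 7 and 0 with DESeq2, 2 and 1 with 8 groups or equal cell numbers, 6 and 2 at 0.5% or without doublets, and 8 and 10 at 5%.

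Leaving out sums or a library, counts ranged from 1802 (without Sst-only replicate 1) to 2352 for insulin-only against Sst-only, 1396 to 1643 for Gcg-only against Ppy-only, 1274 to 1572 for Sst-only against Ppy-only, 28 to 58 for Gcg+Ppy against Gcg-only, 636 to 796 against Ppy-only, 4 to 11 for Sst+Ppy against Sst-only and 1343 to 1683 against Ppy-only cells. The ranges of log2 differences of insulin-only cells join fits without 1 sum and untested CPM ratios of a single library. Those from Gcg-only cells ranged from 2.47 to 2.94 for Mt2 and 0.10 to 0.67 for Slc30a1. They ranged from 0.32 to 0.55 for Slc30a5 and -1.23 to -0.54 for Slc39a14. Those from Sst-only cells ranged from 4.52 to 4.81 for Mt1 and -1.09 to -0.15 for Slc30a1. They ranged from 0.34 to 1.52 for Slc30a5 and 0.011 to 3.05 for Slc39a14. Both ends for Slc39a14 are untested ratios of a single library, on 8 and 1 Sst-only UMIs. Its fitted values over the 17 tested alternatives ranged from 0.15 to 2.88. For Slc30a8 the differences from Sst-only cells ranged from 4.69 to 14.13. The upper value is a fit to a library with 0 UMIs and is no bound. Those from Ppy-only cells ranged from 1.51 to 1.83 for Mt1 and -0.96 to -0.27 for Slc39a14.

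Without the 3 cells with most UMIs of a gene in each sum, untested log2 differences were 3.22 (Mt1) and 2.94 (Mt2) from Gcg-only cells, 1.89 (Mt1), 1.62 (Mt2) and 5.13 (Slc30a8) from Ppy-only cells, and 5.52 (Mt1), 6.23 (Mt2, with 0 counts taken as 3), 0.00045 (Slc30a1), 1.28 (Slc30a5), 7.39 (Slc30a8) and 1.66 (Slc39a14) from Sst-only cells. With the replicate block, 4664 genes were called for insulin-only against Gcg-only cells instead of 4709. Among the 6 genes the block ended the call of Slc30a5 in Sst-only against Ppy-only cells (adjusted p = 0.0547, edgeR) and made one for Mt1 in Sst+Ppy against Sst-only cells (adjusted p = 0.0431, edgeR). Low counts limit the Sst-only values, which rest on 23 and 0 UMIs for Slc30a8 and 4 and 2 UMIs for Mt2.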

Other observations

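Among hormone-negative cells, Slc39a10, a zinc importer, stood at 106 and 51.0 CPM in cells with endothelial markers. Slc39a5, another importer, stood at 122 and 102 CPM in the 22 and 18 hormone-negative cells with other or few markers. No test result for these levels is given here.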
